A study of Mus musculus with 6 samples.

Results

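The Fanconi anemia pathway repairs DNA strands that are covalently crosslinked to each other. FANCM, a DNA translocase, binds stalled replication forks together with FAAP24 and with a pair of histone-fold proteins, CENPS and CENPX. From there the Fanconi core complex, of which FANCA is a subunit, attaches ubiquitin to FANCD2 and FANCI, which then recruit nucleases and recombination proteins. RAD9A, RAD1 and HUS1 form a ring-shaped clamp (the 9-1-1 complex) that is loaded at damaged or stalled DNA and helps to activate the checkpoint kinase ATR.

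The expression of 10 genes of these complexes (*Faap24*, *Cenpx*, *Cenps*, *Fancm*, *Fanca*, *Fancd2*, *Fanci*, *Rad1*, *Rad9a* and *Hus1*) was examined in MC3T3-E1 cells, a mouse preosteoblast line of C57BL/6 origin at passage 4. All 10 were found by symbol among the 11234 genes of the deposited files. *Faap24*, *Cenpx* and *Rad1* were chosen by their presence in the study's list of differentially expressed genes (DEGs), which was made from these same libraries. Their differences between the groups are therefore given as a description, with no test. The other 7 were chosen as their partners in the same complexes, and these were tested.

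Cells in both groups were first held in serum-free medium to synchronize them. They were then cultured for 24 h in complete medium with 100 μmol/L cyanidin-3-O-glucoside (C3G, a plant anthocyanin) or in the same medium without it. RNA of 3 libraries per group was sequenced, and each gene of a library was given as FPKM, that is, fragments scaled by the length of the gene and by all mapped fragments. The untreated libraries are the control group. In bulk RNA, fewer cells of a kind and less RNA per cell cannot be told apart. Nothing in the labels says whether the 3 libraries of a group came from separate cultures, so p values measure the spread between these libraries, which may be technical.

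The depth of the libraries is unknown, since FPKM is already divided by the library total. The median FPKM was between 5.80 and 7.40. Control replicate 1 stood apart, with Pearson's r across genes of 0.886 to 0.939 to the other libraries, and its departure from the other controls followed transcript GC content (Spearman's rho across genes 0.748). For C3G replicate 1 this rho was 0.631, and for the other 4 libraries, each set against the rest of its group, it was -0.692 to -0.469. Of 8 osteoblast markers 7 were listed, with *Runx2*, the master transcription factor of the lineage, at 5.46 to 9.07 FPKM and the collagen gene *Col1a1* at 923 to 4432 FPKM. *Sp7*, another transcription factor of the lineage, had only 0.237 to 0.857 FPKM. *Ibsp* was not listed, and the summed FPKM of the 7 was 2471 to 7576 in untreated and 2505 to 3442 in treated cells, highest in control replicate 1. The defining markers of fat cells (*Adipoq*, *Plin1*) and endothelium (*Pecam1*, *Cdh5*) and the macrophage markers *Ptprc*, *Csf1r* and *Adgre1* were not listed either. *Cd68* had 0.144 to 1.25 FPKM, *Des* had 0.715 to 1.63 FPKM, *Acan* and *Myod1* were not listed, and the cartilage collagen *Col2a1* had 35.1 to 104 FPKM.

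With C3G, *Faap24* and *Rad1* had lower FPKM values than in untreated cells in every library, and none of the other 8 genes separated the groups. The study had chosen *Faap24* and *Rad1* on this difference. In 1.48% of all genes the C3G libraries were all lower, and in 4.02% the groups did not overlap in either direction. No gene of the 7 partners passed the thresholds for a DEG (p of 0.05 in limma and a fold change of 1.2). Of all 11234 genes only 0.650% passed them, so 0 of 7 does not set the partners apart. *Cenpx* had the same mean in both groups. On the log2 scale, the partners of *Faap24* differed by 0.03 (*Fancm*) and -0.16 (*Cenps*), and those of *Rad1* by 0.07 (*Rad9a*) and 0.06 (*Hus1*).

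**Figure D1:**
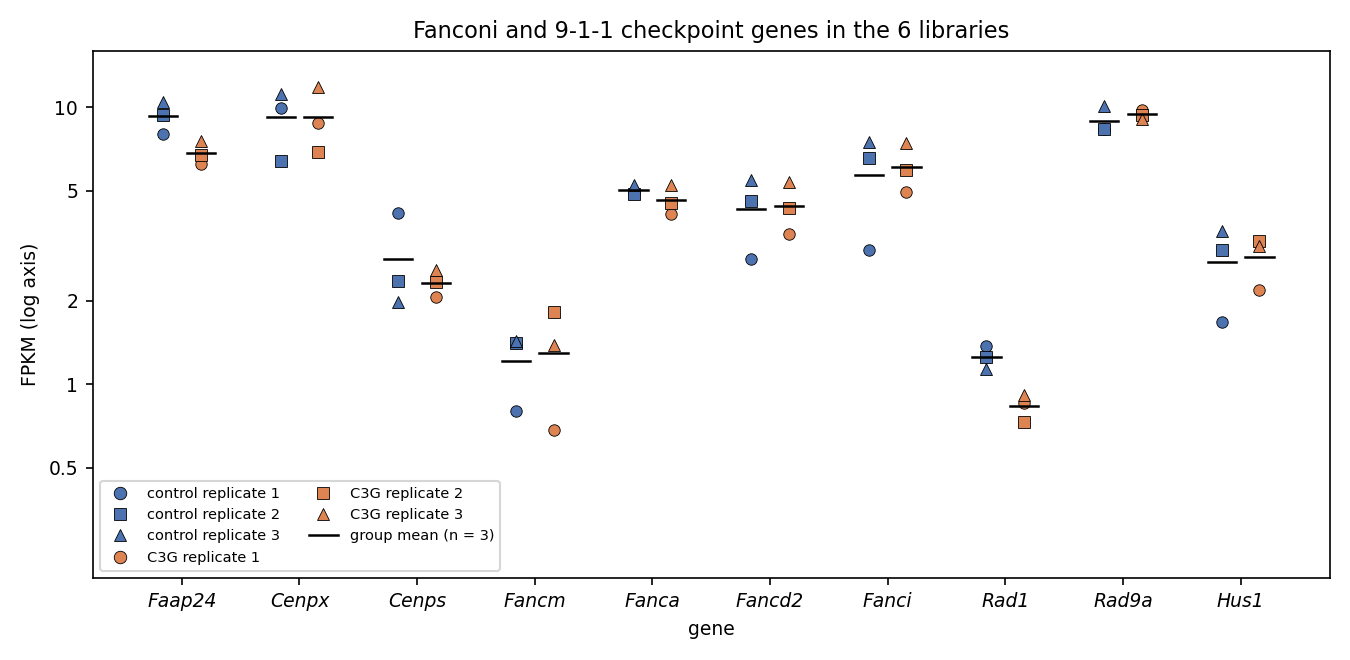
FPKM (log axis) of the 10 genes in the 6 libraries, with control libraries in blue, C3G libraries in orange, a marker shape for each replicate number and a line at each group mean. The groups are separate in *Faap24* and *Rad1*, which the study chose on these libraries, and overlap in the other 8. The circles (replicate 1) are the lowest points of both groups in *Fancm*, *Fancd2*, *Fanci* and *Hus1*.

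*Faap24* (ENSMUSG00000030493.13, minus strand of chromosome 7 from 35392152 to 35396836 in GRCm38) encodes the partner that helps FANCM to bind DNA. It had 8.01, 9.39 and 10.5 FPKM in the untreated libraries (control replicates 1, 2 and 3, the order used throughout), and 6.26, 6.75 and 7.56 FPKM in the treated libraries. Every treated library was under every control library, although the highest treated and the lowest control value were close together. The mean was 9.29 ± 1.24 FPKM (SD, n = 3) in untreated cells and 6.86 ± 0.659 FPKM (SD, n = 3) in treated cells, a ratio of 0.738. On the log2(FPKM + 1) scale the difference was -0.39 with a standard error of 0.168. It was of like size in the 3 pairs of libraries with the same replicate number (-0.31, -0.42 and -0.42). Exons of *Faap24* overlap those of *Rhpn2* on the opposite strand, and 3.59% of the 75-base stretches of its longest transcript also occur there. *Rhpn2* itself had 0.613 to 1.02 FPKM in the 6 libraries.

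*Rad1* (ENSMUSG00000022248.14, chromosome 15, 10486018 to 10499063, plus strand) codes for 1 of the 3 proteins of the clamp ring. It had 1.37, 1.26 and 1.13 FPKM in the untreated libraries and 0.852, 0.731 and 0.916 FPKM in the treated libraries. The groups did not overlap. Its mean was 1.25 ± 0.119 FPKM (SD, n = 3) in untreated cells and 0.833 ± 0.0938 FPKM (SD, n = 3) in treated cells. The ratio of these means was 0.664. The difference was -0.30 on the log2(FPKM + 1) scale with a standard error of 0.122, and at this low level the added 1 makes the difference smaller than the ratio does. With 0.1 added instead of 1 it was -0.54. *Rad1* shares few stretches of sequence with other genes (0.580% of its 75-base stretches, with *Shprh*).

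*Cenpx* (ENSMUSG00000025144.17, chromosome 11, 120710942 to 120713738, minus strand) encodes a histone-fold protein that works with FANCM and at the centromere. Its FPKM was 9.98, 6.38 and 11.2 in the untreated libraries and 8.81, 6.90 and 11.9 in the treated libraries. The values went with the replicate number and not with the group: replicate 2 was the lowest and replicate 3 the highest in both. The means were 9.19 ± 2.50 FPKM (SD, n = 3) in each group, with a log2 difference of 0.0036 and a standard error of 0.268.

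*Faap24*, *Cenpx* and *Rad1* each start beside a protein-coding gene that is transcribed in the other direction, and the DNA between the starts is shown here. Whether a gene and its neighbour share a promoter was not tested. The start of *Cep89* lies 199 bases from that of *Faap24*, the start of *Lrrc45* lies 187 bases from that of *Cenpx*, and the start of *Brix1* lies 71 bases from that of *Rad1* (gene starts of GENCODE M21). The sequences are RefSeq promoter windows on GRCm38.p6, from 250 bases before to 50 bases after the RefSeq start, written 5′ to 3′ on the strand of the gene named first. Capitals mark the bases from one gene start to the other. The start of *Cep89* lies 18 bases outside the window of *Faap24*, so the capitals there run to the window's edge.
Faap24 (chr7:35396718-35397017, minus strand): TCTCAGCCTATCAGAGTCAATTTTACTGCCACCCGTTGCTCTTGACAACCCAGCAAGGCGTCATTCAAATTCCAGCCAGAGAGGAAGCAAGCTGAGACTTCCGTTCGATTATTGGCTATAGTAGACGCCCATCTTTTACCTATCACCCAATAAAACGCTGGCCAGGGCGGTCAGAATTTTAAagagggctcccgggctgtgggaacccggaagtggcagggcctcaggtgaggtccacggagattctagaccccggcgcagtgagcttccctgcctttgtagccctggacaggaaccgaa
Cenpx (chr11:120713718-120714017, minus strand): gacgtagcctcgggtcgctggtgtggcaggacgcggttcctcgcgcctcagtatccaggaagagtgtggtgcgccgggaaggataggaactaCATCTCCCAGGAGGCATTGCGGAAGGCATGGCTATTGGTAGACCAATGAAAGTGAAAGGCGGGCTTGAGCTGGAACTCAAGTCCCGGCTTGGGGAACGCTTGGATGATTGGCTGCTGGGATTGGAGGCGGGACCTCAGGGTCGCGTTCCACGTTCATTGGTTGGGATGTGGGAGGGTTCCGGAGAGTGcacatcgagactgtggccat
Rad1 (chr15:10485768-10486067, plus strand): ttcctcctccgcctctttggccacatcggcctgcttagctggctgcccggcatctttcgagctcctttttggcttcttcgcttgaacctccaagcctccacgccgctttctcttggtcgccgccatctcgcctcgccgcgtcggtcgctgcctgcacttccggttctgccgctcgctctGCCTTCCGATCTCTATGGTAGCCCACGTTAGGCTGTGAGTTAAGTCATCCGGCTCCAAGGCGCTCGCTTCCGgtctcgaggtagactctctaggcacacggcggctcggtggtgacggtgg

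The neighbours were picked by position alone. *Brix1*, a gene of ribosome assembly, had 12.0, 25.4 and 23.7 FPKM in the untreated libraries and 17.6, 22.6 and 21.6 FPKM in the treated libraries. The treated values lay within the control range, and the log2 difference was 0.08 (limma p = 0.800, exact permutation p = 1.0), with the low values in replicate 1 of both groups. *Cep89*, a gene of centrosomes and cilia, had 11.4, 8.32 and 9.29 FPKM without C3G and 10.9, 8.21 and 11.0 FPKM with it, and the groups overlapped (log2 difference 0.05, limma p = 0.799, exact permutation p = 1.0). Neither gene passed the test. *Faap24* and *Rad1* had been chosen by the study for their difference and their neighbours had not, so the pairs are values side by side and not a contrast. *Lrrc45*, beside *Cenpx*, had 14.5, 8.36 and 7.44 FPKM in the untreated libraries and 7.60, 6.50 and 7.64 FPKM in the treated libraries. Its log2 difference was -0.38 with overlapping groups (limma p = 0.183, exact permutation p = 0.3), and control replicate 1 alone was high.

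**Figure D2:**
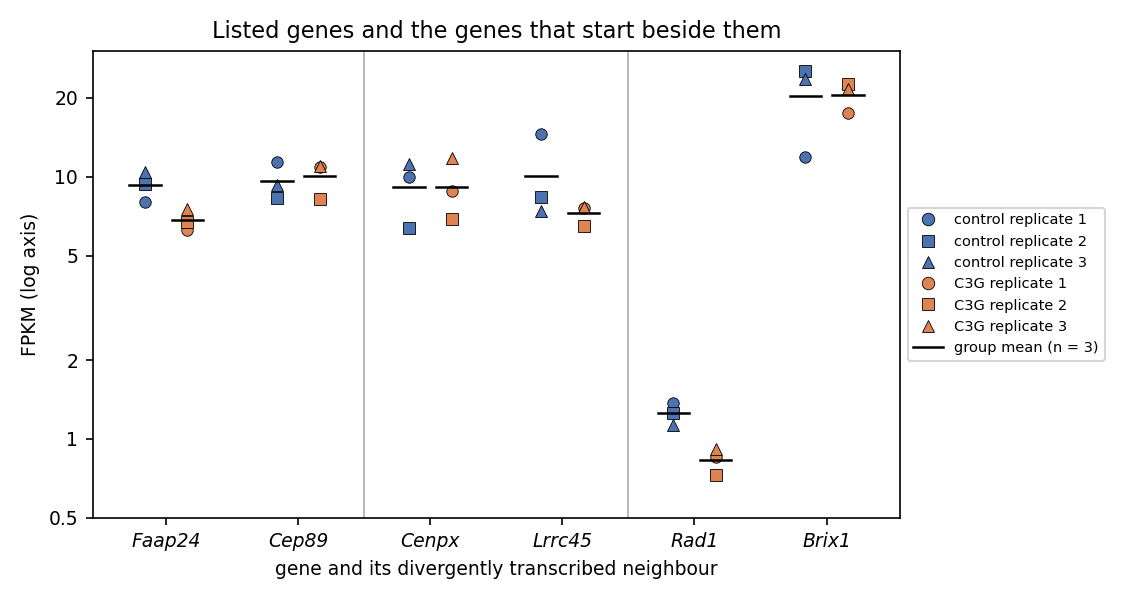
FPKM (log axis) of *Faap24*, *Cenpx* and *Rad1*, each beside the gene that starts next to it in the opposite direction, in the 3 control (blue) and 3 C3G (orange) libraries, with a line at each group mean. *Faap24* and *Rad1* were chosen by the study for their difference in these libraries, so their separate groups are no contrast to the neighbours. The groups overlap in *Cenpx*, *Cep89*, *Lrrc45* and *Brix1*.

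The promoter windows of 8 of the 10 genes were searched on both strands for motifs of growth-regulated genes. *Fancd2* and *Rad9a* had no window in the table. An E2F motif (TTTGGCGC, TTTCCCGC, TTTGGCGG or TTTCGCGC) was found in 1 of the 8 genes, *Cenps*, at 27 to 34 bases after its start, and in 4.37% of the windows of all genes in the FPKM files. The CCAAT box was found in 4 of the 8 (*Faap24*, *Cenpx*, *Fancm* and *Fanca*) and in 38.5% of all such windows. The window of *Cenpx* printed here holds 5 CCAAT boxes and that of *Faap24* holds 2. The motif TTTGAA was found in 2 of the 8 (*Faap24* and *Hus1*) and in 12.2% of all such windows. The windows of *Rad1* and *Fanci* held none of these motifs. No match overlapped that of another motif in these genes, and a match is only a run of letters.

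Among the partners of *Faap24* and *Cenpx*, *Fancm* (ENSMUSG00000055884.8, chromosome 12, 65075603 to 65132058, plus strand) had 0.804, 1.41 and 1.43 FPKM in the untreated libraries and 0.682, 1.82 and 1.38 FPKM in the treated libraries. Replicate 1 was the lowest in both groups. The log2 difference was 0.03 with a standard error of 0.232 (95% interval -0.52 to 0.58, limma p = 0.895, exact permutation p = 1.0). Exons of *Fancm* overlap *Gm47869* and *Gm47870* on the opposite strand, and 6.46% of its 75-base stretches also occur in *Gm47870*. *Cenps* (ENSMUSG00000073705.10, chromosome 4, 149127121 to 149137629, minus strand), which encodes the histone-fold partner of CENPX, had 4.14, 2.35 and 1.98 FPKM without C3G and 2.07, 2.33 and 2.58 FPKM with it. Only control replicate 1 stood out, as the highest. The log2 difference was -0.16 with a standard error of 0.230 (95% interval -0.71 to 0.38, limma p = 0.500, exact permutation p = 0.8), and without control replicate 1 it was 0.07.

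The proteins of these genes act as a complex, so the FPKM of the partners was also compared within each library. *Cenpx* was 2.41 to 5.65 times the level of *Cenps* per length of gene, with 3.59 ± 1.79 (SD, n = 3) in untreated cells and 3.94 ± 0.865 (SD, n = 3) in treated cells. *Faap24* was 3.70 to 9.97 times *Fancm*, with 7.97 ± 1.76 (SD, n = 3) in untreated cells and 6.12 ± 2.79 (SD, n = 3) in treated cells. The ratio of *Faap24* to *Fancm* was highest in replicate 1 of both groups, where *Fancm* was low. The 2 groups overlapped in both ratios, and these were not tested because they hold a gene from the study's list.

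*Fanca* (ENSMUSG00000032815.16, chromosome 8, 123268300 to 123318576, minus strand) had 4.95, 4.88 and 5.25 FPKM in the untreated libraries and 4.13, 4.49 and 5.23 FPKM in the treated libraries. It was lower with C3G in each of the 3 pairs, by amounts that were close to 0 in the third. Of all genes, 11.6% were lower in 3 of 3 pairs. The log2 difference was -0.11 with a standard error of 0.154 (95% interval -0.47 to 0.26, limma p = 0.516, exact permutation p = 0.3). Exons of *Fanca* overlap *Zfp276* on the opposite strand, with 6.05% of its 75-base stretches in common.

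*Fancd2* (ENSMUSG00000034023.16, chromosome 6, 113531682 to 113597017, plus strand) and *Fanci* (ENSMUSG00000039187.16, chromosome 7, 79391929 to 79450264, plus strand) encode the pair that receives ubiquitin. *Fancd2* had 2.82, 4.59 and 5.44 FPKM in the untreated libraries and 3.48, 4.34 and 5.35 FPKM in the treated libraries. *Fanci* had 3.06, 6.56 and 7.49 FPKM without C3G and 4.94, 5.96 and 7.41 FPKM with it. In both genes replicate 1 was the lowest and replicate 3 the highest of each group, and the values of C3G-treated cells lay within the control range. The log2 difference was 0.05 for *Fancd2* (standard error 0.248, 95% interval -0.54 to 0.64, limma p = 0.856, exact permutation p = 1.0) and 0.14 for *Fanci* (standard error 0.310, 95% interval -0.60 to 0.88, limma p = 0.668, exact permutation p = 0.9). The interval for *Fanci* was the widest of the 10 genes.

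*Fanci* stood at 1.37 to 1.43 times the FPKM of *Fancd2* in 5 of the 6 libraries. The exception was control replicate 1, where the ratio was 1.08. The ratio was 1.30 ± 0.186 (SD, n = 3) in untreated cells and 1.39 ± 0.0242 (SD, n = 3) in C3G-treated cells (two-sided exact permutation test, p = 0.7). Of the 75-base stretches of *Fanci*, 9.12% also occur in *Polg* on the opposite strand, which had 3.84 to 5.04 FPKM. For *Fancd2* the share was 3.37%, with *Fancd2os*. *Emc3*, which starts 30 bases from *Fancd2* in the other direction, had 32.2, 39.3 and 41.5 FPKM in the untreated libraries and 43.8, 43.3 and 41.3 FPKM in the treated libraries (log2 difference 0.19, limma p = 0.273, exact permutation p = 0.2).

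In the clamp, *Rad9a* (ENSMUSG00000024824.6, chromosome 19, 4195196 to 4201662, minus strand) encodes the subunit whose tail binds TOPBP1. It had 8.34, 8.37 and 10.1 FPKM in the untreated libraries and 9.79, 9.38 and 9.09 FPKM in the treated libraries. The treated libraries lay inside the control range (log2 difference 0.07, standard error 0.154, 95% interval -0.29 to 0.44, limma p = 0.655, exact permutation p = 0.4). Exons of *Rad9a* overlap *Ppp1ca* on the opposite strand, with 6.27% of its 75-base stretches in common, and *Ppp1ca* had 172 to 221 FPKM. How the authors assigned such reads is not stated, so the level of *Rad9a* is uncertain.

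*Hus1* (ENSMUSG00000020413.11, chromosome 11, 8993137 to 9011191, minus strand) encodes the third subunit. Its FPKM was 1.67, 3.05 and 3.57 in the untreated libraries and 2.18, 3.29 and 3.15 in the treated libraries. Replicate 1 was again the lowest of both groups, and the groups overlapped (log2 difference 0.06, standard error 0.246, 95% interval -0.52 to 0.65, limma p = 0.800, exact permutation p = 0.8).

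The subunits of the clamp, which bind in equal numbers in the ring, had unequal FPKM. *Hus1* was 0.201 to 0.364 times *Rad9a*, with 0.306 ± 0.0911 (SD, n = 3) in untreated cells and 0.307 ± 0.0726 (SD, n = 3) in treated cells (two-sided exact permutation test, p = 1.0). *Rad1* to *Rad9a* was 0.164, 0.150 and 0.112 in the untreated libraries and 0.0870, 0.0779 and 0.101 in the treated libraries. This ratio did not overlap between the groups, and it was not tested because *Rad1* was chosen on these libraries.

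**Figure D3:**
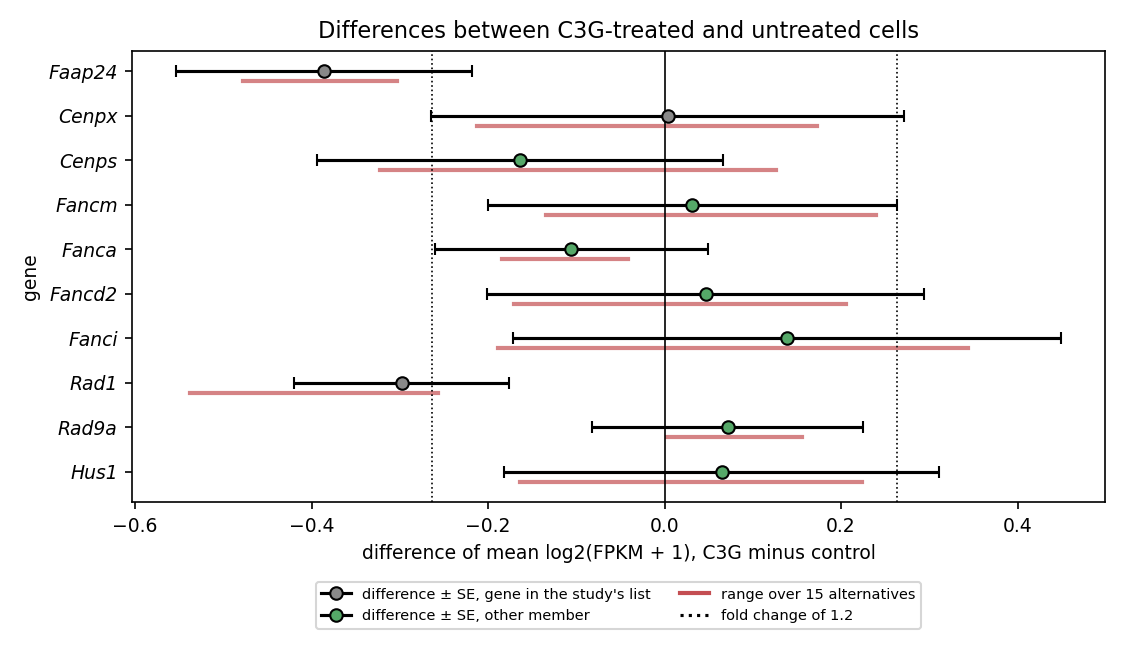
Difference of mean log2(FPKM + 1) between C3G-treated and untreated cells for the 10 genes (points with standard errors, 3 libraries per group), grey for the 3 genes of the study's list and green for the other 7, with red bars for the range over 15 alternative analyses and dotted lines at a fold change of 1.2. Of the 7 green genes, the red bars of *Fanca* and *Rad9a* lie on 1 side of 0 but near it and the other 5 span 0, while the side of 0 of *Faap24* and *Rad1* was set by their choice on these libraries.

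Over the 6 libraries, *Cenpx* (9.19 FPKM), *Rad9a* (9.18 FPKM) and *Faap24* (8.08 FPKM) had the highest means. They could not be ordered, since *Cenpx* was above *Rad9a* in 3 of 6 libraries and *Rad9a* above *Faap24* in 4. *Fanci* followed with 5.90 FPKM, *Fanca* with 4.82 and *Fancd2* with 4.34, and *Faap24* was above *Fanci* in 6 of 6 libraries. *Fanci* exceeded *Fanca* in 5 of 6 and *Fanca* exceeded *Fancd2* in 4 of 6. Then came *Hus1* (2.82 FPKM), which was under *Fancd2* in every library, and *Cenps* (2.57 FPKM). *Fancm* (1.26 FPKM) and *Rad1* (1.04 FPKM) were the lowest, both under *Cenps* in 6 of 6 libraries, and *Fancm* was above *Rad1* in 4 of 6. These 2 genes lay in the lowest 10% of all listed genes by mean FPKM, at percentiles 9.46 and 7.34.

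Among all 11234 genes, 73 (0.650%) were DEGs with limma at the thresholds used, while 74 had an unadjusted p under 0.05 and 0 passed Benjamini-Hochberg adjustment (smallest adjusted p 0.497). With the replicate number as a block the count was 169. Of the 7 partners 0 were DEGs, 0 had an unadjusted p under 0.05, and the adjusted p (limma, Benjamini-Hochberg) was 0.992 for each. The block made 0 calls among them too. The groups did not overlap in 4.02% of all genes, and in 1.48% the C3G libraries were all lower. Of the 10 genes this held for *Faap24* and *Rad1*, which the study had chosen on this difference, and for 0 of the 7 partners. The median log2 difference of the 7 partners was 0.05, and that of all genes was 0.06.

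Several members had a low value in replicate 1, as did many other genes. In *Fancm*, *Fancd2*, *Fanci* and *Hus1* the lowest 2 of the 6 libraries were control replicate 1 and C3G replicate 1. This was 4 of the 10 genes, close to the share among all genes, 32.8%. The longest transcripts of these 4 genes have a GC content of 44.3% to 47.4%. Among all genes with a GC content under 48% this pattern was found in 64.3%, against 10.4% of the genes with a higher GC content, and among the 106 genes of the pathway lists described next in 59.4%. *Rad1* has the lowest GC content of the 10 genes, 43.3%, and did not have the pattern: its highest value was in control replicate 1. With control replicate 1 left out, the log2 differences of *Fancm*, *Fancd2*, *Fanci* and *Hus1* turned to -0.11, -0.17, -0.19 and -0.16, none of them past the thresholds. That setting kept C3G replicate 1, which was low in these genes too. With replicates 2 and 3 only, the differences were 0.10, -0.04, -0.07 and -0.03, also without a call. After a correction for GC content within each library, the differences of *Fancm*, *Fancd2*, *Fanci* and *Hus1* were -0.11, -0.07, 0.04 and -0.08, again none past the thresholds. That of *Rad1* went from -0.30 to -0.46, and its standard error from 0.122 to 0.267.

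The pathway around these genes was followed with 8 lists holding 106 measured genes. None was a DEG with limma, 0 had an unadjusted p under 0.05, and 0 were DEGs with the replicate block. There were 68 genes with a positive and 38 with a negative log2 difference. Their median difference was 0.06, equal to that of all genes, and 64.2% were positive, against 62.0% of all genes. The groups were without overlap in *Timeless*, *Rpa1*, *E2f1* and *Plk1*, lower with C3G, where the share of all genes is 1.48%. *Plk1* was named after its values were seen. They were also without overlap in *Hjurp*, which the study had chosen on these libraries. In either direction this was 5 of the 106 genes, near the share of all genes, 4.02%. Without control replicate 1 the median over the 106 genes was -0.13 and that of all genes was -0.01. Here and in the lists below, this setting kept C3G replicate 1. In 59.4% of the 106 genes both replicate 1 libraries were the lowest. With replicates 2 and 3 only, the median was -0.03 over the 106 genes and -0.01 over all genes.

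All 9 further genes of the Fanconi core complex and its ubiquitin-conjugating enzyme were measured, with a median log2 difference of 0.04 (0.08 without control replicate 1). *Fance*, which bridges the core complex to FANCD2, had 14.3, 5.63 and 5.02 FPKM in the untreated libraries and 5.71, 3.96 and 4.68 FPKM in the treated libraries. Control replicate 1 was far above the other 5 libraries (log2 difference -0.56, limma p = 0.172, exact permutation p = 0.3, and -0.14 without that library). *Fancg*, another core subunit, had 2.36, 2.57 and 3.41 FPKM without C3G and 3.61, 3.04 and 3.55 FPKM with it (log2 difference 0.23, limma p = 0.221, exact permutation p = 0.2). Neither gene separated the groups.

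The BLM helicase complex, which is tethered by FANCM, had 4 measured genes with a median log2 difference of -0.000735, which was -0.19 without control replicate 1. *Blm* itself had 1.01, 3.43 and 3.90 FPKM in the untreated libraries and 1.82, 3.73 and 3.55 FPKM in the treated libraries, lowest in replicate 1 of both groups like *Fancm* (limma p = 0.694, exact permutation p = 0.8). *Rmi1*, a scaffold of that complex, had a log2 difference of -0.01 (limma p = 0.984, exact permutation p = 1.0). Of 15 genes that cut, bypass or deubiquitinate at crosslinks, 10 had a positive and 5 a negative difference, with a median of 0.03. Without control replicate 1 the counts were 5 and 10, with a median of -0.05. *Mad2l2*, a subunit of the bypass polymerase zeta, had 2.83, 2.64 and 2.91 FPKM without C3G and 4.24, 3.51 and 2.51 FPKM with it (limma p = 0.320, exact permutation p = 0.4). *Rev3l*, the catalytic subunit of that polymerase, had 1.35 FPKM in control replicate 1 and 3.97 to 6.83 FPKM in the other 5 libraries (log2 difference 0.41, limma p = 0.391, exact permutation p = 0.6), and without control replicate 1 the difference was -0.11.

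In the recombination arm, 8 of 9 genes had a positive difference, with a median of 0.18, and of all genes 62.0% had a positive one. Without control replicate 1, and with C3G replicate 1 kept, 0 of the 9 were positive and the median was -0.21. *Xrcc2*, a gene of recombination repair, had a log2 difference of 0.23 (limma p = 0.456, exact permutation p = 0.8) and *Brca1* one of 0.31 (limma p = 0.533, exact permutation p = 0.6). Without control replicate 1 these were -0.10 and -0.21.

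Among 19 genes chosen around clamp loading and ATR, 17 were measured and *Rad9b* and *Hus1b*, the germline relatives of clamp subunits, were not listed. The median log2 difference was 0.0028, with 9 genes positive and 8 negative. Without control replicate 1, and with C3G replicate 1 kept, it was -0.19 with 17 negative. *Rad17*, which encodes the loader of the clamp, had 1.57, 2.29 and 3.04 FPKM in the untreated libraries and 1.81, 2.16 and 2.39 FPKM in the treated libraries, and *Topbp1*, the activator that the clamp recruits, had 3.75, 13.2 and 12.0 FPKM and 6.07, 12.4 and 11.3 FPKM. Neither separated the groups (limma p = 0.772 and 0.775, exact permutation p = 0.9 for both). The smallest p in the list was that of *Timeless*, a fork protection gene, with 14.6, 10.8 and 11.2 FPKM without C3G and 8.34, 10.0 and 10.3 FPKM with it (log2 difference -0.31, limma p = 0.127, exact permutation p = 0.1, the smallest that 3 libraries against 3 allow). *Rpa1*, which coats single-stranded DNA, had 35.3, 32.4 and 33.6 FPKM and 27.2, 32.2 and 31.3 FPKM (log2 difference -0.16, limma p = 0.322, exact permutation p = 0.1). In both genes the C3G libraries were all under the controls, by a small margin in replicates 2 and 3.

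CENPS and CENPX also join CENPT and CENPW at the centromere. *Cenpt* had a log2 difference of -0.05 (limma p = 0.748, exact permutation p = 0.4) and *Cenpw* one of 0.18 (limma p = 0.406, exact permutation p = 0.5), and the median of the 17 inner kinetochore genes was 0.14. Without control replicate 1 that median was -0.12. *Hjurp*, the chaperone that deposits the centromeric histone, had 22.2 to 26.8 FPKM in the untreated libraries and 31.7, 32.0 and 26.9 FPKM in the treated libraries. It is itself in the study's list, so that its log2 difference of 0.30 is a description. *Cenpo*, an inner kinetochore subunit, had 0.449 FPKM in control replicate 1 and 1.40 to 1.58 FPKM in the other 5 libraries (limma p = 0.380, exact permutation p = 0.9), and its log2 difference went from 0.22 to -0.05 without control replicate 1.

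**Figure D4:**
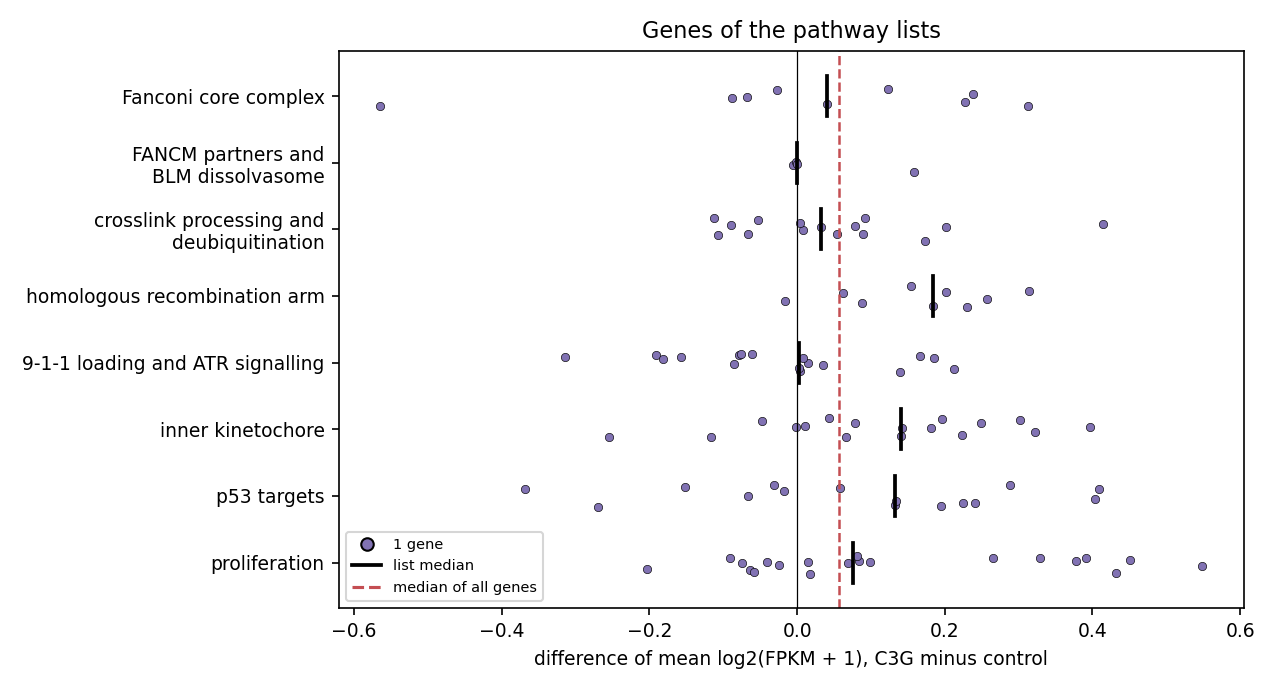
Difference of mean log2(FPKM + 1) between C3G-treated and untreated cells for each gene of the 8 pathway lists (points), with the list medians as black bars and the median of all 11234 genes as a dashed line. The list medians lie between -0.000735 and 0.18, on both sides of the dashed line at 0.06. With control replicate 1 left out and C3G replicate 1 kept, they lie between -0.21 and 0.08.

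Targets of p53, which rise when DNA is damaged, had a median log2 difference of 0.13 over 15 genes. *Cdkn1a*, the best known of them, had 117, 82.1 and 84.7 FPKM in the untreated libraries and 103, 86.7 and 79.7 FPKM in the treated libraries (log2 difference -0.07, limma p = 0.752, exact permutation p = 0.7). The smallest p values in the list were those of *Btg2*, an antiproliferative gene (log2 difference 0.29, limma p = 0.199, exact permutation p = 0.3), and *Trp53inp1*, a p53 cofactor (log2 difference 0.41, limma p = 0.353, exact permutation p = 0.6). *Trp53inp1* had 3.86 FPKM in control replicate 1 and 9.51 to 14.1 FPKM in the other 5 libraries, and without control replicate 1 its difference was -0.07. The list median was then -0.04. The summed FPKM of the list was 749, 508 and 522 in the untreated libraries and 549, 518 and 499 in the treated libraries. Only control replicate 1 stood out, as the highest.

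Fanconi and checkpoint genes are mostly expressed in dividing cells, so proliferation genes were measured beside them. Their summed FPKM was 584, 1005 and 1053 in the untreated libraries and 779, 976 and 1031 in the treated libraries, lowest in replicate 1 of both groups. Of 20 genes, 13 had a positive and 7 a negative log2 difference, with a median of 0.08. Without control replicate 1, but with the low C3G replicate 1 kept, all 20 were negative, with a median of -0.15. *E2f1*, a transcription factor of S phase, had 26.6, 22.6 and 22.1 FPKM without C3G and 18.9, 21.8 and 20.7 FPKM with it (log2 difference -0.20, limma p = 0.226, exact permutation p = 0.1). *Cdk1*, the mitotic kinase, had 18.9, 48.2 and 51.9 FPKM and 45.7, 49.0 and 47.9 FPKM (log2 difference 0.38, limma p = 0.345, exact permutation p = 0.9), and -0.07 without control replicate 1. *Fancm*, *Fancd2*, *Fanci* and *Hus1* had their low values in the same libraries as the summed FPKM, and *Rad1* did not. Not every gene of the list was low in control replicate 1: *E2f1* was highest there. The part of proliferation in the levels of these genes was not tested.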

How the data were processed

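The authors deposited 1 FPKM value per gene for each of 6 libraries (stranded kit, FastQC, FPKM calculated with Ballgown). The submitters' processing notes also name cutadapt, HISAT2 2.1.0, StringTie and STAR 2.5.2b without their roles, and the build hg19, although the gene identifiers are those of mouse. Use of strand in counting is not given in the sources used here. Each listed gene has a mean FPKM of at least 0.5 in 1 or both groups, so genes low in both are absent.

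Symbols matched 11211 of the 11234 identifiers. Positions, GC content of the longest transcript, overlaps and 75-base stretches came from GENCODE M21 (GRCm38), and promoters from RefSeq (GRCm38.p6).

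The group difference in log2(FPKM + 1) was estimated for every gene by limma 3.58.1 (R 4.3.3, eBayes with trend, no covariate), and p values were adjusted by Benjamini-Hochberg. The DEG thresholds were an unadjusted two-sided p of 0.05 and a 1.2-fold change. The added 1 shrinks the fold change of low genes. Permutation tests were exact and two-sided (scipy 1.17.1). Named genes were the members, the DEGs and the 2 smallest p values of each pathway list, and the 3 genes most alike to each gene of the study's list. *Runx2*, *Col1a1*, *Rad17*, *Topbp1*, *Cenpt*, *Cenpw* and *Cdkn1a* were added for their roles, and neighbours for their position.

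Deviations from the group means correlated across genes between same-numbered libraries (0.653, 0.580 and 0.440 for numbers 1, 2 and 3, against -0.640 to 0.307 for different numbers, positive between 2 and 3), so these numbers, taken from the sample titles, were used as pairs in a replicate block. The members, lists and alternatives were chosen with earlier results of these data known.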

Additional observations from a re-analysis of the deposited data

How the results depend on the processing

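Over the 15 alternatives the log2 difference was -0.48 to -0.30 for *Faap24* and -0.54 to -0.26 for *Rad1*. Both were chosen on these libraries and their groups do not overlap, so their direction is no sign of stability. Among the 7 partners 0 DEGs were called in any alternative, as among the genes of the pathway lists. The replicate block changed no call among them. *Cenps*, *Fancm*, *Fancd2*, *Fanci*, *Hus1* and *Cenpx* changed sign in some alternatives without being called.

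The count of DEGs over all genes was 73. It was 135 with the GC correction (67 higher, 68 lower), 169 with the replicate block, 246 with both, and 191 with replicates 2 and 3 only (88 higher, 103 lower). With each library left out in turn it was 40 to 144: 144 without control replicate 1, 127 without control replicate 2, and 45, 40 and 43 without C3G replicate 1, 2 and 3. Quantile normalization gave 30 higher and 30 lower. The cause was not tested. Depth is unknown, so counting error at the level of *Rad1* cannot be given.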

Other observations

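Genes whose values over the 6 libraries were most like those of *Faap24*, *Cenpx* and *Rad1* were sought among genes with a mean FPKM of at least 1, by Pearson's r of log2(FPKM + 1). The 6 points include the difference between the groups, and the r values are the highest of 10463, so they are a description only. *Rnaseh1*, which encodes an enzyme that removes RNA from RNA-DNA hybrids, was most like *Faap24* (r 0.979), followed by *Lacc1* (r 0.942) and *Syt11* (r 0.925). *Zfp521*, a zinc finger gene, was most like *Cenpx* (r 0.973), followed by *Cnppd1* (r 0.970) and *Cpe* (r 0.956). *Kif27*, a kinesin gene, was most like *Rad1* (r 0.989), followed by *Camk2g* (r 0.973), which is in the study's list too, and *Ndufaf1* (r 0.965).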
